A study of Hordeum vulgare with 12 samples.

Results

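The genes described here are those whose difference between mutant and wild-type (WT) barley inflorescences changes direction between an earlier and a later stage of the spike. A gene was a member when its mutant minus WT difference was at least 1 in size on the log2(FPKM + 1) scale at both stages, with opposite signs. FPKM are reads scaled by gene length and by the depth of the library, and 1 on this scale is about a doubling for genes well above 1 FPKM. Of 29014 listed genes, 68 met the rule. In 55 of them the mutant was below WT at stage W2.0 and above it at W3.5, and in 13 the order was the opposite. The genes were chosen by the authors' group means of all 4 groups, so every difference below describes values that made the choice, and no test of them is given.

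The material was inflorescence tissue of Golden Promise, a cultivar of barley (Hordeum vulgare) much used for transformation, under normal growth. The groups were mutant at W2.0, WT at W2.0, mutant at W3.5 and WT at W3.5, with 3 biological replicates each, and each replicate pooled 15 to 20 spikes. The labels call the genotype only mutant, and neither the mutated gene, the allele nor the number of independent lines is given in the sources used here. The series title speaks of FASCIATED EAR genes and the design text of an FEA mutant, and that text names W3.0 where the sample labels give W3.5, which were followed.

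The barley spike arises from an inflorescence meristem that forms spikelet meristems on its flanks, and these go on to form florets and floral organs. FASCIATED EAR genes were first known from maize, where their loss enlarges and flattens the inflorescence meristem of the ear. The stage names follow the form of the Waddington scale, on which spike stages of barley and wheat are commonly ordered, although the labels do not spell it out. Genes are given by identifier, because neither the deposited table nor the gene table used here pairs these identifiers with names (0 matched). Roles of the members are therefore not described, the tissue could not be checked against marker genes, and a chromosome is the one written in the identifier.

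The deposited table gives 1 mean per group, without single libraries. Reads of single libraries were worked out from these means where whole reads and a whole gene length gave 1 likely solution, and in each group the deepest library is called A, the next B and the shallowest C. Depths ran from 63298092 to 75896357 reads. All 12 libraries were obtained for 19 members, and at least 1 group of 3 for 27. A search of 10899 genes of low and moderate level gave all 12 libraries for 2542, and shares over genes given below are of those for which the libraries compared were obtained. Over these genes, some libraries stood apart from the 2 others of their group. WT W2.0 library B was at least 1 above both others on the log2(FPKM + 1) scale for 141 of 2826 genes (4.99%), mutant W2.0 library C for 131 of 2814 (4.66%) and mutant W3.5 library C for 99 of 2901 (3.41%). In mutant W2.0 the share was 1.31% for library A and 1.85% for library B, and in WT W2.0 it was 0.566% for A and 0.248% for C. In mutant W3.5 it was 1.34% for A and 1.55% for B, and in WT W3.5 it was 0.407%, 1.66% and 0.881% for A, B and C. The rule was applied with and without each library to the members with all 12, while group means and medians of the 55 and 13 genes are given with all libraries only.

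The 55 genes that were lower, then higher in the mutant were mostly high in WT at W2.0 and low in WT at W3.5, with both mutant groups in between. At W2.0 the median group mean was 2.42 FPKM in the mutant and 13.8 FPKM in WT. At W3.5 it was 3.68 FPKM in the mutant and 0.317 FPKM in WT. WT at W2.0 was the highest of the 4 groups for 48 genes and the mutant at W3.5 for 7. WT at W3.5 was the lowest for 51 genes and the mutant at W2.0 for 4. In bulk tissue, fewer cells that express a gene and less RNA of it per cell cannot be told apart. Mutant minus WT differences had a median of -1.79 at W2.0, down to -3.92, and of 1.38 at W3.5, up to 3.66. Over all genes the medians were 0.01 and -0.01. Of all listed genes, 1.27% were lower in the mutant by this threshold at W2.0 and 1.33% were higher at W3.5, and the 55 genes were 14.9% of the first list of 368 genes and 14.2% of the second list of 387.

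**Figure D1:**
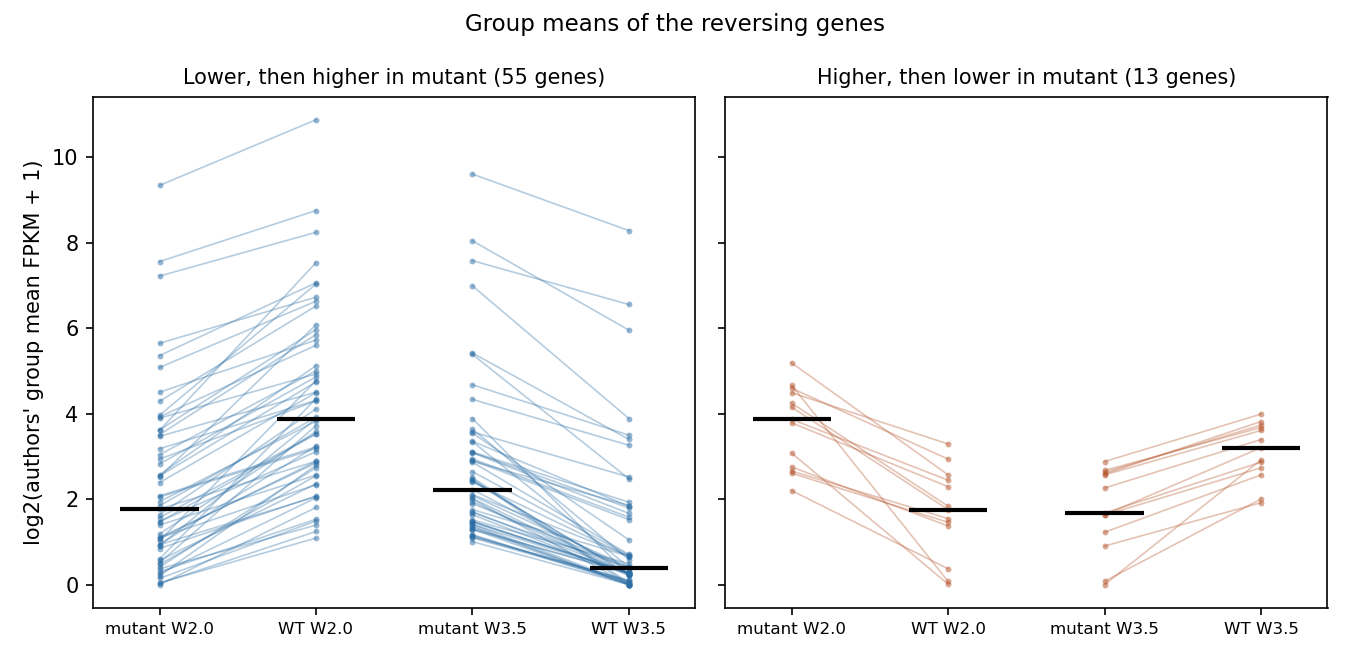
Authors' group means of the 68 genes on the log2(FPKM + 1) scale, by group. Each point is a gene, thin lines join mutant and WT of a stage, and black bars are medians over genes. The 55 genes on the left have medians of 2.42 and 13.8 FPKM in mutant and WT at W2.0 and of 3.68 and 0.317 FPKM at W3.5, and the 13 genes on the right show the opposite order.

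The gene with the largest reversal, by the smaller of its 2 differences, was HORVU1Hr1G065150 on 1H. Its means at W2.0 were 4.75 FPKM in the mutant against 66.7 FPKM in WT, and at W3.5 13.8 FPKM in the mutant against 0.167 FPKM in WT. These are differences of -3.56 and 3.66 on the log2 scale. Single libraries were obtained for a pair of its groups: in the mutant at W2.0, A, B and C had 3.86, 0.466 and 9.91 FPKM, and in WT at W3.5 they had 0.344, 0 and 0.158 FPKM. The next was HORVU2Hr1G072930 on 2H, with 11.2 FPKM in the mutant and 184.5 FPKM in WT at W2.0. At W3.5 it had 126.4 FPKM in the mutant and 13.8 FPKM in WT. In both genes WT at W2.0 was the highest group, and the mutant at W3.5 came second.

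Levels differed widely within the 55 genes. The highest group mean was under 5 FPKM for 12 genes, from 5 to under 20 for 21, from 20 to under 100 for 15 and at least 100 FPKM for 7. The most abundant was HORVU7Hr1G098280 on 7H, with 648.9 FPKM in the mutant against 1883.9 FPKM in WT at W2.0, and 779.6 FPKM in the mutant against 311.2 FPKM in WT at W3.5. HORVU7Hr1G098260, the neighbouring listed gene, had 187.8 and 431.3 FPKM in mutant and WT at W2.0 and 190.7 and 93.2 FPKM at W3.5. HORVU5Hr1G086630 on 5H followed, with 148.3 and 302.7 FPKM in mutant and WT at W2.0 and 263.7 and 61.1 FPKM at W3.5. All 3 were abundant in every group, and their differences were of smaller size than those of the leading genes. At the other end, WT at W3.5 was listed at 0 for 7 genes and the mutant at W2.0 for 1.

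Between the stages, these 55 genes differed more in WT than in the mutant. In WT, 54 of 55 were lower at W3.5 than at W2.0 by at least 1, with a median difference of -3.02, where 2.72% of all genes were. In the mutant the median difference was 0.37: 20 genes were higher at W3.5 by at least 1, 7 were lower and 28 lay between, where 0.489% of all genes were higher and 1.64% lower. The change was smaller in size in the mutant than in WT for 50 of 55 genes. The rule fixes that the 2 genotypes' changes differ by at least 2, so these counts carry no separate information on the reversal. Genes that changed the same way in both genotypes numbered 17. One of them, HORVU1Hr1G044000 on 1H, had 18.6 FPKM in the mutant against 90.9 FPKM in WT at W2.0, and 4.37 FPKM in the mutant against 0.188 FPKM in WT at W3.5. Its W3.5 minus W2.0 difference was -1.87 in the mutant and -6.27 in WT.

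**Figure D2:**
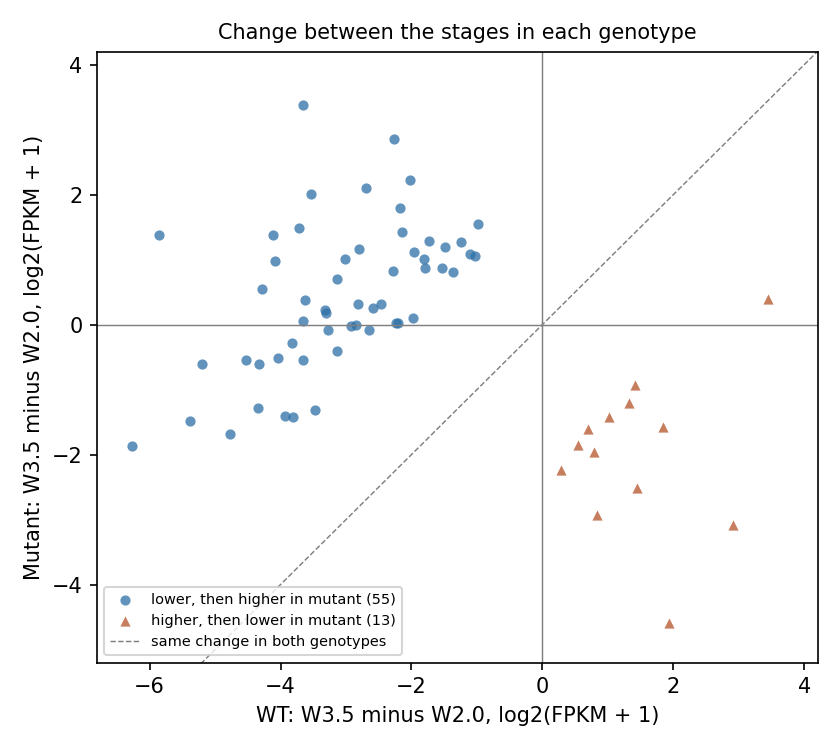
Difference between W3.5 and W2.0 in the mutant (vertical axis) against the same in WT (horizontal axis), on the log2(FPKM + 1) scale, for the 68 genes. Circles are the 55 genes lower, then higher in the mutant, which lie left of 0 because all were lower at W3.5 in WT, and triangles are the 13 genes of the opposite kind. The empty band along the dashed line of equal change is set by the rule.

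Single libraries were obtained for 17 of the 55 genes in all 4 groups. These were of lower level, with highest group means of 1.14 to 10.5 FPKM (median 4.13), while the other 38 had a median of 27.3 FPKM. In WT at W2.0, library B was the highest of the 3 for 16 of the 17 genes and stood at least 1 above both others for all 16, where it did so in 4.99% of the genes obtained for this group. In the median gene the highest WT W2.0 library held 81.5% of the FPKM summed over the 3 libraries, against 44.3% over all genes obtained for the group. Members needed a high mean in WT W2.0 to meet the rule, which 1 high library can give. The other genes did not need it, so neither comparison is like with like. In the mutant at W3.5, for which 22 genes were obtained, library C was the highest for 14 and library B for 8. The highest library held 94.2% in the median gene, against 44.6% over all genes obtained. Those genes did not need a high mean in mutant W3.5, as the members did, so the same limit holds. The share was also above that of all genes in both groups with the lower mean. Members often had few reads there, and few reads can raise this share by themselves, so the comparison is not like with like. In mutant W2.0 it was 66.6% against 46.8%, and library C was the highest for 14 of 23 genes and stood alone for 5. In WT W3.5 it was 56.7% against 43.5%, over genes with reads in that group only. Because no library of the 23 genes passed 0.908 FPKM there, none could stand alone.

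The 22 genes fell into a set high in mutant W3.5 library B and a set high in mutant W3.5 library C. HORVU3Hr1G115420 on 3H is an example of the first. Its libraries A, B and C had 0, 0.0922 and 1.08 FPKM in the mutant and 0.355, 12.8 and 1.34 FPKM in WT at W2.0. At W3.5 they had 0, 7.95 and 0.236 FPKM in the mutant and 0.32, 0.171 and 0.467 FPKM in WT. Only library B was high in either of the 2 groups with the larger mean, and the libraries of mutant and WT overlapped at both stages. The group means at W2.0 were 0.39 ± 0.597 FPKM in the mutant and 4.85 ± 6.94 FPKM in WT (SD, n = 3). At W3.5 they were 2.73 ± 4.52 FPKM in the mutant and 0.32 ± 0.148 FPKM in WT (SD, n = 3). The SD was above the mean in 3 of the 4 groups.

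This set held 8 genes, and WT W2.0 library B was the highest of its group in all 7 for which that group was obtained. HORVU0Hr1G015930, whose identifier carries no chromosome, had 0.425, 0.601 and 2.3 FPKM in the mutant libraries and 0.674, 13.9 and 4.63 FPKM in the WT libraries of W2.0. At W3.5 it had 1.04, 17.3 and 0.568 FPKM in the mutant libraries and 0.497, 0.788 and 0.615 FPKM in the WT libraries. The mutant and WT libraries overlapped at W2.0 and at W3.5 here too. HORVU2Hr1G112830 on 2H had 0, 0.0629 and 0.407 FPKM in the mutant and 0, 17 and 0.779 FPKM in WT at W2.0. Its mutant libraries at W3.5 had 0, 4.62 and 0.133 FPKM, and its WT libraries had no reads. Over the 8 genes, library C was the highest of the mutant at W2.0 in all 8, with a median of 1.2 FPKM, while library A had no reads in 6 of them. In mutant W3.5, library A had no reads in 5 of the 8.

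The set high in mutant W3.5 library C held 14 genes. HORVU2Hr1G028670 on 2H had 0.418, 0.0371 and 0.54 FPKM in the mutant libraries and 0.0731, 16.1 and 0.837 FPKM in the WT libraries of W2.0. At W3.5 it had 0.038, 0.579 and 13.5 FPKM in the mutant libraries and 0, 0.0796 and 0 FPKM in the WT libraries. As reads, the high libraries held 855 in WT at W2.0 and 619 in the mutant at W3.5, and no other library of the gene held more than 40. HORVU1Hr1G062380 on 1H had 416 reads in WT W2.0 library B and 5 in each of the 2 others of that group, and 315 reads in mutant W3.5 library C with 0 in the 2 others. In both genes 1 library at each stage held nearly all reads of the higher group.

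A different profile at W2.0 was seen in HORVU3Hr1G016900 on 3H. It had 2.21, 2.18 and 0.926 FPKM in the mutant and 11.9, 10.2 and 9.31 FPKM in WT at W2.0, so that the genotypes did not overlap. The means were 1.77 ± 0.735 FPKM in the mutant and 10.5 ± 1.33 FPKM in WT (SD, n = 3). At W3.5 it had 0.077, 0.0783 and 6.19 FPKM in the mutant and 0, 0.485 and 0 FPKM in WT, and mutant library C alone was high. Its difference at W2.0 was larger than the spread between libraries, while at W3.5 the genotypes overlapped.

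Of the 17 genes with WT and mutant libraries at W2.0, 3 had every mutant library below every WT library, where 140 of 2650 genes obtained in both groups did (5.28%). Of the 22 obtained in both groups of W3.5, all mutant libraries lay above all WT libraries in 3, where 237 of 2851 genes did so (8.31%). Both held in 1 gene, HORVU2Hr1G064150 on 2H. Its libraries had 1.5, 1.4 and 0.544 FPKM in the mutant and 2.27, 12.3 and 3.97 FPKM in WT at W2.0. At W3.5 they had 0.0664, 0.281 and 4.64 FPKM in the mutant and 0.0345, 0.0348 and 0 FPKM in WT. The genotypes were separated at both stages, although WT W2.0 library B and mutant W3.5 library C were each far above the others of their group.

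**Figure D3:**
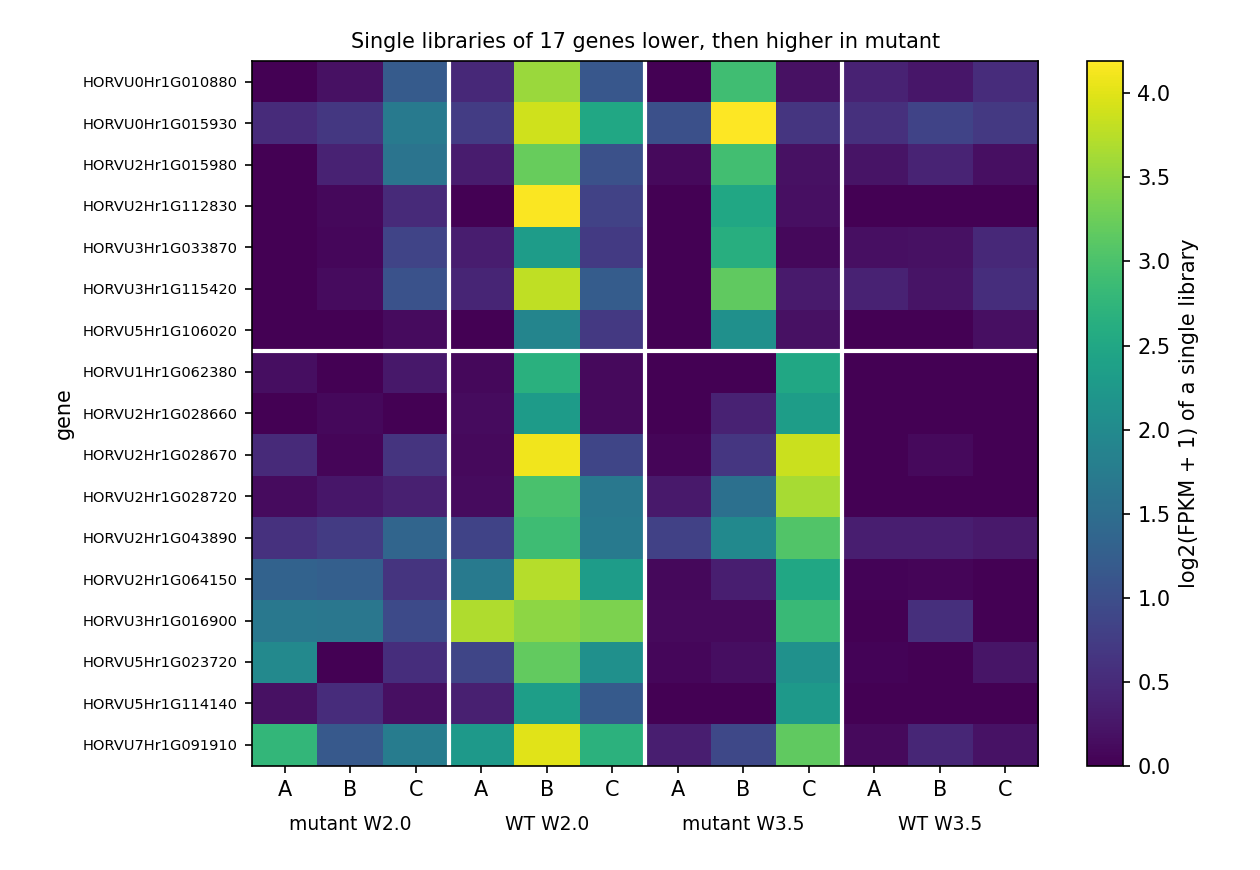
Single-library values, log2(FPKM + 1) as colour, of the 17 genes lower, then higher in the mutant for which all 12 libraries were obtained. Columns are libraries A, B and C of each group by falling depth, and the white horizontal line separates 7 genes highest in mutant W3.5 library B from 10 highest in library C. WT W2.0 library B is the brightest of its group in 16 genes, and WT W3.5 is dark throughout.

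The rule was applied again to these 17 genes with each library left out in turn. Without WT W2.0 library B, 1 of the 17 met it, which was HORVU3Hr1G016900. Without mutant W3.5 library B, 10 did, and without mutant W3.5 library C, 9 did. Without mutant W2.0 library A or B, 14 did. Each of the other 7 libraries could be left out with 16 or 17 of the genes remaining. None of the 17 genes met the rule under all 12 omissions. The other 38 genes could not be treated this way, and WT W2.0 libraries were obtained for none of them. A few are among the 22 genes with mutant W3.5 libraries. HORVU6Hr1G075270 was highest there in library B, and HORVU1Hr1G057680, HORVU1Hr1G043910, HORVU0Hr1G005300 and HORVU2Hr1G090760 in library C. Whether the rest depend on the same libraries could not be measured from the group means.

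**Figure D4:**
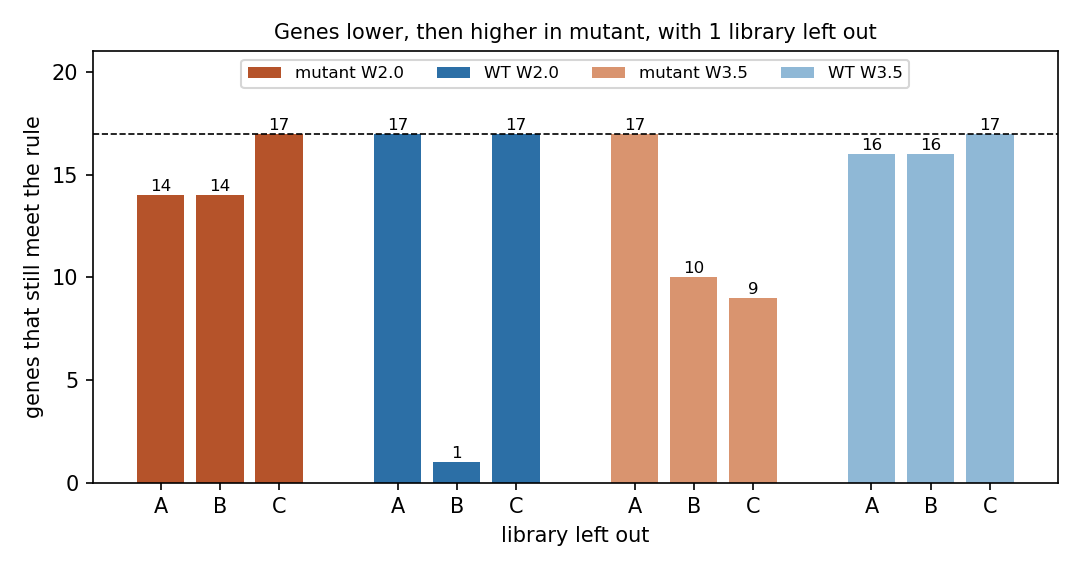
Number of the 17 genes (vertical axis) that still meet the rule when 1 library, on the horizontal axis, is left out of its group mean, with the dashed line at 17. The bar for WT W2.0 library B stands at 1 and those for mutant W3.5 libraries B and C at 10 and 9, while the rest stand at 14 to 17.

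Some of the libraries that stood alone shared genes. Among 2542 genes with all 12 libraries, mutant W3.5 library C stood alone in 79 and WT W2.0 library B in 139, with 22 genes in both (27.8% of the first list and 15.8% of the second). Mutant W3.5 library B stood alone in 33, of which 11 were shared with WT W2.0 library B (33.3% and 7.91%). Mutant W3.5 library A stood alone in 30 genes, and 0 of them were shared with WT W2.0 library B. The sharing was not limited to these groups: mutant W2.0 library C stood alone in 111 genes, of which 23 were shared with WT W2.0 library B (20.7% and 16.5%), and WT W3.5 library B in 47, of which 2 were (4.26% and 1.44%). Without the members, 2532 genes were left, and WT W2.0 library B stood alone in 130. It then shared 15 of 72 genes with mutant W3.5 library C, 9 of 31 with mutant W3.5 library B, 0 of 30 with mutant W3.5 library A, 23 of 111 with mutant W2.0 library C and 2 of 46 with WT W3.5 library B. What these libraries had in common was not tested.

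The 13 genes that were higher, then lower in the mutant showed the opposite order of groups at moderate levels. At W2.0 their median was 13.6 FPKM in the mutant and 2.38 FPKM in WT, and at W3.5 it was 2.2 FPKM in the mutant and 8.24 FPKM in WT. The mutant at W2.0 was the highest group for 11 genes and WT at W3.5 for 2. Mutant minus WT differences had a median of 1.65 at W2.0, up to 4.59, and of -1.13 at W3.5, down to -2.92. By this threshold 1.71% of all genes were higher in the mutant at W2.0 and 0.538% lower at W3.5, and the 13 genes were 2.62% and 8.33% of these lists. From W2.0 to W3.5 all 13 were higher in WT, 8 of them by at least 1, where 0.72% of all genes were. In the mutant 11 were lower by at least 1, where 1.64% of all genes were. The change was smaller in size in the mutant than in WT for 4 of the 13. Here too the rule fixes that the genotypes' changes differ by at least 2, so these counts carry no separate information.

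HORVU1Hr1G073970 on 1H led this direction. Its libraries A, B and C had 16.2, 1.53 and 4.69 FPKM in the mutant and 0, 0 and 0.0257 FPKM in WT at W2.0. No mutant library had reads at W3.5, when the WT libraries had 0, 19.7 and 0 FPKM. All mutant libraries lay above all WT libraries at W2.0, as in 8.42% of the genes obtained in both groups, with means of 7.46 ± 7.7 FPKM in the mutant and 0.00857 ± 0.0148 FPKM in WT (SD, n = 3). At W3.5 the WT mean of 6.57 FPKM came from library B alone, with 806 reads. The next gene was HORVU1Hr1G078500 on 1H, whose means were 24.4 FPKM in the mutant and 0.0535 FPKM in WT at W2.0, a difference of 4.59. Its W3.5 libraries had 0.0617, 0.108 and 0 FPKM in the mutant and 2, 6.98 and 0.0385 FPKM in WT, so that the genotypes overlapped at W3.5.

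The other 2 genes with single libraries differed from each other. HORVU5Hr1G059890 on 5H had 6.79, 1.51 and 8.95 FPKM in the mutant and 1.34, 1.8 and 1.62 FPKM in WT at W2.0. At W3.5 it had 0.953, 0.82 and 0.842 FPKM in the mutant and 0.356, 7.33 and 0.667 FPKM in WT, and both comparisons overlapped. In HORVU7Hr1G020780 on 7H, 3 groups were obtained. It had 2.58, 2.27 and 1.43 FPKM in the mutant and 4.58, 5.74 and 6.64 FPKM in WT at W3.5, and these did not overlap, as in 10.2% of the genes obtained in both groups. WT W3.5 library B was the highest of its group in 3 of these 4 genes, and stood alone there. It did so in 1.66% of the genes obtained for the group, which did not need a high mean there. Without it, neither of the 2 genes with all 12 libraries met the rule, and without mutant W2.0 library C or mutant W3.5 library B 1 of them did. The most abundant gene of this direction was HORVU7Hr1G041230 on 7H. It had 35.5 FPKM in the mutant against 4.94 FPKM in WT at W2.0, and 3.8 FPKM in the mutant against 9.53 FPKM in WT at W3.5. After HORVU1Hr1G078500 came HORVU1Hr1G082310 on 1H, with 23.2 FPKM in the mutant against 6.67 FPKM in WT at W2.0, and 5.19 FPKM in the mutant against 12.3 FPKM in WT at W3.5.

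Some members had another member close by in identifier order, which follows position along a chromosome in this numbering. Taking members with at most 20 listed genes between them, 26 of the 63 members with a chromosome lay in 11 runs. In 5 runs no listed gene stood between the members. What this window gives for other lists of genes was not worked out, so the counts have no share to be set against. On 3H, HORVU3Hr1G016860, HORVU3Hr1G016890 and HORVU3Hr1G016900 were consecutive in the list. The first had 0.427 FPKM in the mutant against 12.2 FPKM in WT at W2.0. Its mean at W3.5 was 3 FPKM in the mutant and listed at 0 in WT. A run of 4 on 2H held HORVU2Hr1G028430, HORVU2Hr1G028660, HORVU2Hr1G028670 and HORVU2Hr1G028720, with 8 other listed genes among them, none of which passed the threshold of 1 in the members' direction at either stage. The 3 of these with single libraries were all highest in WT W2.0 library B and mutant W3.5 library C. HORVU7Hr1G041230 and HORVU7Hr1G041260, both higher, then lower, were consecutive on 7H, and 2 runs on 1H held members of both directions. How the authors counted reads that match several genes is not given in the sources used here, so neighbours with near-identical sequence can hold a share of each other's reads.

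By chromosome, 13 of the 68 members lay on 1H, 11 each on 2H and 7H, 10 on 3H, 7 on 5H, 6 on 4H, 5 on 6H and 5 had none. Of all listed genes 11.8% carry 1H in the identifier, 16.6% carry 2H, 14.6% carry 3H, 11.1% each carry 4H and 6H, 15.6% carry 5H, 14.0% carry 7H and 5.19% carry none. All 21 members on 2H and 3H were of the lower, then higher kind, as were 55 of the 68 members in all. Some of the 21 lay together in runs. Of the 13 others, 1H and 7H held 4 each. At the edge of the rule, the last 2 members of the lower, then higher kind had, as the smaller of their 2 differences in size, 1.007 and 1.019, and the first 2 genes outside had 0.98 and 0.969. In the other direction these were 1.008 and 1.016 inside and 0.961 and 0.947 outside, so the sets have no gap at their threshold.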

How the data were processed

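Total RNA of 12 samples was sequenced from libraries prepared by a TruSeq RNA protocol, per the labels, in which strand is not kept. FastQC, HISAT2 2.0.0 and HTSeq 0.11.2 are named in the submitters' processing notes, and the genome build is not given in the sources used here. The deposited table holds 4 columns of FPKM, each the mean that the authors took over 3 libraries, a unit read from the values. Ratios of the lowest values gave the 12 depths, which came out whole within 0.018 reads. For each gene, whole reads and a whole length of 60 to 9000 bases were searched, and a group was kept at a posterior share above 0.9. The search covered the members and, with lower limits on reads, all 10899 genes whose highest mean was from 1 to under 16 FPKM. The members' search was tested on reads simulated from the means of 57 members, those with no mean above 60 FPKM. Dispersions (a measure of spread between libraries) were 0.1 to 2. Of the recovered groups 98.2% were right, and 96.6% at a dispersion of 2, so a small part of the recovered values may be wrong. The search with lower limits and genes with a wider spread were not tested. Some members' groups had nearly all reads in 1 library, such as 0, 0 and 315 reads of HORVU1Hr1G062380 in mutant W3.5. Recovery of such groups was not checked separately. Recovered libraries cannot be matched to replicate numbers. Recovery works best for low values, so the precision of abundant genes is unknown. Log2 differences use a pseudocount of 1. No difference was tested, because the rule used every group. The genes named are those that lead each direction, those with the highest means, those with single libraries and those in runs; the last 2 kinds were added after their values were seen. Members and lists were chosen with earlier results of these data known. Python 3.11.15, numpy 2.4.6 and numba 0.67.0 were used.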

Additional observations from a re-analysis of the deposited data

Results flagged for a closer look

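HORVU2Hr1G064150, lower, then higher in the mutant, had every mutant library below every WT library at W2.0 and every mutant library above every WT library at W3.5. Its mutant minus WT difference was 3.12 greater at W3.5 than at W2.0 on the log2(FPKM + 1) scale. This difference between the stages was not tested, since the gene was chosen for it. The same separation in both stages was seen in 1 of 17 such genes with all 12 libraries. Among the 2542 genes with all 12 libraries in the search of 10899 genes, 5 had it and 12 had it in the opposite order, above and then below. That search stopped at 800 reads in the higher groups, so the 2542 hold only some of the members. HORVU2Hr1G064150, with 1120 reads in WT W2.0 library B alone, is not among the 2542.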

How the results depend on the processing

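The numbers of genes depended on the scale and on single libraries. Against 55 genes lower, then higher, pseudocounts of 0.1, 0.5 and 2 gave 232, 82 and 27, and thresholds of 0.8 and 1.5 gave 85 and 16. Against 13 genes higher, then lower, pseudocounts of 0.1, 0.5 and 2 gave 74, 20 and 5, and thresholds of 0.8 and 1.5 gave 28 and 3. A pseudocount of 0.1 with at least 1 FPKM in a group, chosen after seeing the data, gave 155 and 46. With the 0.1 pseudocount the median stage difference of the 55 genes was 0.65 in the mutant and -4.64 in WT, where a pseudocount of 1 gave 0.37 and -3.02. A filter of at least 2 FPKM in a group gave 50 and 13 genes. A filter of at least 1 FPKM could remove none, because the rule itself needs that level. Centring each column on its median gave 60 and 10, with column medians within 0.034 of their mean. Leaving out 1 library gave 1 to 18 genes against 17, and 0 to 3 against 2. The lowest values came without WT W2.0 library B and without WT W3.5 library B. No paired analysis was possible because the columns are group means and carry no replicate number. Single libraries were obtained mainly at low and moderate levels, where the search was also limited to set numbers of reads, and how far depth limits it was not tested.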
